A study of Homo sapiens with 12 samples.

Results

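The comparison described here is that of 17-beta-estradiol with vehicle in endothelial cells that carried no transfected estrogen receptor, and it used 6 of the 12 arrays of the study. The cells were EA.hy926 (Eahy926), a human endothelial line obtained by fusion of endothelium from the umbilical vein with carcinoma cells of the lung. Per the labels the parent line lacks estrogen receptor alpha. Control cells had been stably transfected with the empty backbone pCDNA 3.1, and the receptor cells of the other 6 arrays with pCMV3-ERalpha. Both lines had gone through 5 microgram/ml of puromycin for 2 to 3 weeks and selection of 8 to 10 single colonies, and both were kept in 2 microgram/ml. The 3 estradiol arrays of control cells came from cells given 10 nM estradiol for 16 h after 24 h without serum, and the 3 vehicle arrays from cells given ethanol in the same way. The series calls the 3 samples of a group biological replicates. The labels do not say whether they were separate clones or separate wells, so the p-values measure the spread between these samples, which may be technical. The arrays were chosen by their labels alone, and the comparison was fitted on these 6 arrays so that the wider spread of the receptor cells did not enter it.

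Estradiol acts mainly through 2 nuclear receptors, estrogen receptor alpha (gene ESR1) and beta (ESR2), which bind DNA at estrogen response elements and recruit coactivators or corepressors. The membrane receptor GPER1 and small receptor pools at the cell surface can also start kinase signalling within minutes. In endothelium the best known outcome is activation of the endothelial nitric oxide synthase NOS3, with effects on adhesion molecules, coagulation and repair. The empty vector line therefore serves as the baseline for hormone effects that do not need the transfected receptor.

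The control arrays looked alike. Between 18447 and 19008 probes were detected per array, and genes had a median between-array SD of 0.106 log2 with estradiol and 0.113 with vehicle, against 0.195 and 0.194 in receptor cells. Across genes, arrays of the same treatment correlated at 0.9942 to 0.9955 (6 pairs) and arrays of different treatment at 0.9938 to 0.9953 (9 pairs), so the treatment did not separate the arrays at this level. Of 33 endothelial identity genes, 25 were detected on all 6 arrays, among them PECAM1, CDH5, VWF, TEK and ICAM2, while CLDN5, EMCN, FLT1 and TAL1 were detected on 0. Of 15 epithelial markers, KRT7, KRT8, KRT18, KRT80, MUC1 and EPCAM were detected on all 6 arrays, and 8 were detected on 0, CDH1 among them. Of the leukocyte markers, 2 of 12 were detected on all 6 arrays, CD68 and LYZ, and PTPRC was on 0. Of 16 mesenchymal and smooth muscle markers, VIM, ACTA2, CDH2, S100A4, FAP and TAGLN were detected on all 6 arrays. On 0 arrays were 9, COL1A1, PDGFRB and MYH11 among them.

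Probes for the receptors themselves were mostly at background. Expression is given as the normalized log2 level of a probe, and a probe counts as detected on an array when its deposited detection p is under 0.05. Detection began at a level of 4.85 to 4.89 on these arrays. The 1 probe for ESR1 stood at 4.57, 4.47 and 4.47 in the vehicle arrays and at 4.65, 4.67 and 4.44 in the estradiol arrays, detected on 0 of 6. It was also detected on 0 of the 6 arrays of receptor cells, which carry the transfected receptor. A background level of this probe therefore does not show that the receptor transcript is absent. Of the 2 probes for ESR2, 1 was detected on 0 arrays and the other on 1, estradiol replicate 3, at 4.97. The 3 probes for GPER1 were detected on 1, 0 and 0 arrays, the single one being vehicle replicate 1 at 5.30. A probe at background gives only an upper bound on the transcript, and these arrays do not measure receptor protein. Related nuclear receptors were measured. The glucocorticoid receptor NR3C1 was detected on all 6 arrays by 1 of its probes, as was the estrogen-related receptor ESRRA, whose ligand is not estradiol. ESRRA stood at 6.63, 6.81 and 6.76 with vehicle and at 6.50, 6.90 and 6.60 with estradiol, and NR3C1 at 5.57, 5.55 and 5.37 against 5.35, 5.39 and 5.71. The groups overlapped for both.

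With 10 nM estradiol for 16 h, no gene of control cells passed the test. Of 13584 genes tested with limma, 0 (0%) had a Benjamini-Hochberg adjusted p under 0.05, and the smallest adjusted p was 0.627. Before adjustment 799 genes (5.88%) had a p under 0.05, 356 of them higher with estradiol (2.62%) and 443 lower (3.26%). The 3 estradiol arrays lay wholly above the 3 vehicle arrays for 689 genes (5.07%) and wholly below for 810 (5.96%), together 11% of the genes. No estimate reached 2-fold, and 8 reached 1.5-fold. The estimated log2 folds ran from -0.64 to 0.67, with the middle 90% between -0.22 and 0.21.

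The precision of these arrays limits how large a difference between these estradiol and vehicle samples most transcripts could have had. The 95% interval of a gene's log2 fold reached a median of 0.23 to either side of the estimate, or 1.17-fold. It lay wholly within 1.5-fold in either direction for 12746 of the 13584 genes (93.8%) and within 2-fold for 13582. The exceptions were TMPRSS11B, a protease near background, with an interval from -1.12 to 0.52, and TXNL1, a thioredoxin-like protein, from 0.29 to 1.04. Of the 11725 genes detected on all 6 arrays, 11318 (96.5%) had intervals within 1.5-fold and 11725 within 2-fold. Each interval stands on its own and is not adjusted for the number of genes. The intervals rest on the spread between these samples, which may be technical, and on background-corrected values. Folds of genes near background were smaller without that correction. Changes smaller than these widths, and genes below detection, are not resolved.

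**Figure D1:**
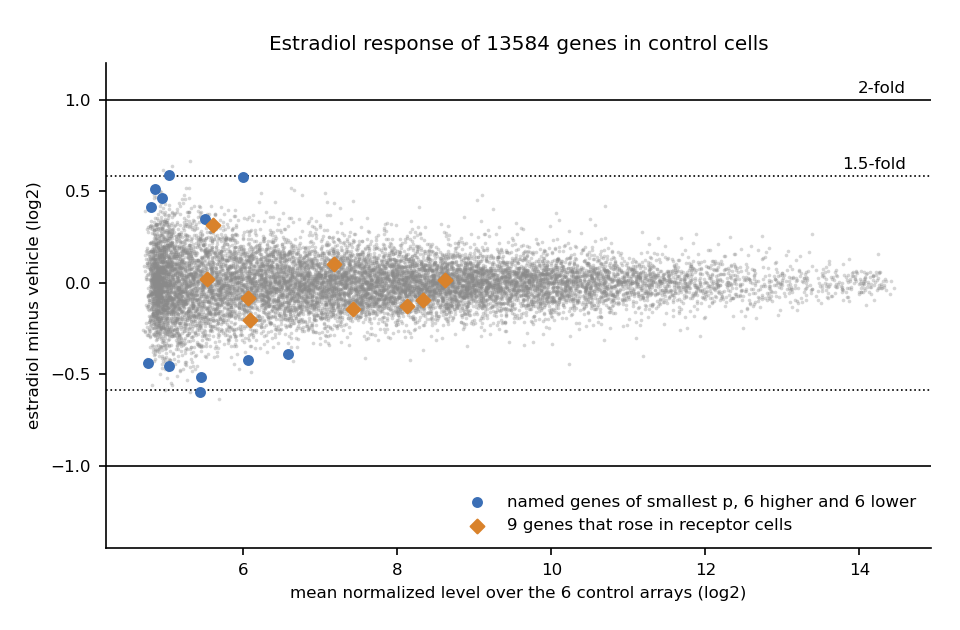
Each of the 13584 tested genes is a point, with its mean normalized level over the 6 control arrays (log2, x axis) and its estradiol minus vehicle difference (log2, y axis). Lines mark 1.5-fold (dotted) and 2-fold (solid), blue dots the 6 higher and 6 lower genes of smallest p among those with a gene name, and orange diamonds the 9 tested genes that estradiol raised in receptor cells. All points lie inside the 2-fold lines, and 8 lie at or past 1.5-fold.

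None of the genes with the smallest p-values passed the test. The smallest of all belonged to LOC100131707, higher with estradiol (limma, unadjusted 0.000121, adjusted p = 0.627), but placeholder symbols such as LOC, KIAA or FLJ were left out of the genes described here. Among those with higher estimates was CMKLR2, a receptor for the adipokine chemerin. It stood at 5.63, 5.79 and 5.71 with vehicle and at 6.42, 6.13 and 6.31 with estradiol, a log2 fold of 0.58 ± 0.10 (SE, limma, adjusted p = 0.627). All 3 estradiol arrays were above all 3 vehicle arrays. SLC39A7, which moves zinc out of the endoplasmic reticulum, had levels of 5.31, 5.32 and 5.37 against 5.72, 5.68 and 5.65 (0.35 ± 0.07, adjusted p = 0.669). HS6ST1, a sulfotransferase that modifies heparan sulfate, was detected on 1 of 3 vehicle arrays and 3 of 3 estradiol arrays, with a log2 fold of 0.59 ± 0.11. Another 3 were detected on 0 of 3 vehicle arrays, so that only a lower bound can be given. The bound was 1.19-fold for the sialyltransferase ST6GALNAC1, 1.25-fold for the growth hormone-releasing hormone receptor GHRHR and 1.11-fold for DENND2C, an activator of Rab proteins.

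On the lower side stood PC, the mitochondrial pyruvate carboxylase that feeds the citric acid cycle. Its levels were 5.69, 5.74 and 5.80 with vehicle and 5.00, 5.29 and 5.14 with estradiol, a log2 fold of -0.60 ± 0.09 (SE, limma, adjusted p = 0.627). GALNT2, which starts O-linked glycosylation, had levels of 5.77, 5.75 and 5.59 against 5.09, 5.19 and 5.29 (-0.52 ± 0.09). The groups did not overlap for either gene, as for 810 genes in that direction. ATMIN, a partner of the DNA damage kinase ATM, had -0.42 ± 0.08, and DYNC2H1, a motor protein of cilia, -0.39 ± 0.07. ARNT, the partner of both the aryl hydrocarbon receptor and the hypoxia-inducible factors, had levels of 5.22, 5.26 and 5.31 against 4.92, 4.79 and 4.71, and was detected on 3 of 3 vehicle and 1 of 3 estradiol arrays (-0.46 ± 0.08). ACSS3, an acyl-CoA synthetase, was detected on 3 of 3 vehicle and 0 of 3 estradiol arrays, at least 1.09-fold lower. Apart from ATMIN and DYNC2H1, these levels lie within 1 log2 unit of where detection starts.

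**Figure D2:**
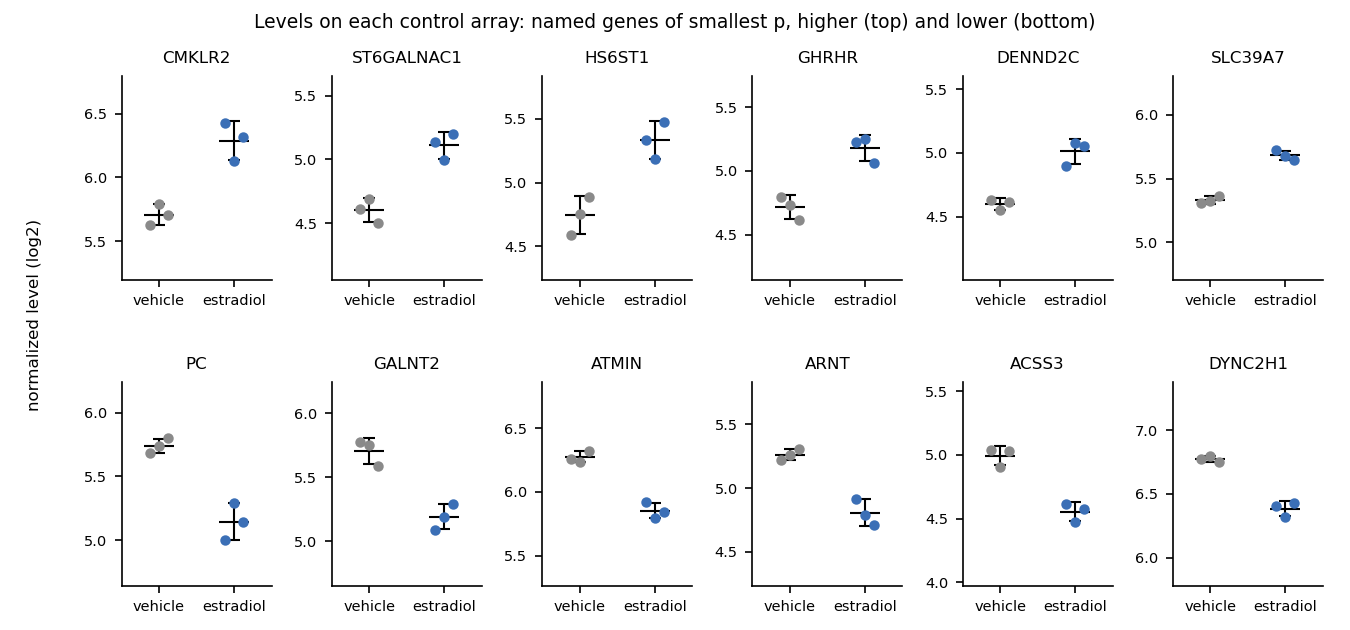
Normalized levels (log2, y axis) on each of the 6 control arrays for the 6 genes of smallest p with higher estimates (top) and the 6 with lower estimates (bottom), placeholder symbols left out, with vehicle in grey and estradiol in blue. Bars give the mean and SD of 3 arrays, and all panels span the same number of log2 units. In every panel the groups do not overlap, although no gene passed the adjusted test.

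Among genes with a name whose groups did not overlap and that were detected on all 3 arrays of the higher group, the 4 largest estimates in each direction added TXNL1 (0.67 ± 0.16, adjusted p = 0.775), the zinc finger protein ZNF131 (0.52 ± 0.17) and, on the lower side, HSPG2 (-0.55 ± 0.14), the basement membrane proteoglycan perlecan. HSPG2 stood at 5.39, 5.23 and 5.42 with vehicle and at 4.61, 4.65 and 5.14 with estradiol, detected on 3 of 3 and 1 of 3 arrays. The flippase subunit gene ATP8A2 and the fibroblast growth factor receptor adaptor FRS2 were detected on 3 of 3 vehicle and 0 of 3 estradiol arrays, at least 1.33-fold and 1.17-fold lower. How far these genes stand apart depended on the background correction. On the authors' deposited normalized values the log2 fold of CMKLR2 was 0.25 in place of 0.58, that of TXNL1 0.22 in place of 0.67, that of PC -0.20 in place of -0.60 and that of HSPG2 -0.17 in place of -0.55. The directions were the same.

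An abundant gene came closest to the threshold under other settings. TAF15, an RNA-binding protein, was singled out after its values were seen. Its levels were 11.42, 11.38 and 11.36 with vehicle and 10.89, 11.05 and 11.02 with estradiol, so that all estradiol arrays were lower. The log2 fold was -0.40 (95% interval -0.58 to -0.22), with an adjusted p of 0.627 in limma. The adjusted p was 0.0508 with an intensity trend and robust prior, 0.0621 on the authors' values and 0.0911 without background correction, none of them past 0.05. Its second probe, at a mean level of 9.28, had -0.21. In receptor cells the same probe had a log2 response of 0.03.

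Receptor cells offer an independent look at the same genes, since the responses of both lines share no array. Of 791 genes with an unadjusted p under 0.05 in control cells and the same probe in the 12-array fit, 392 had the same sign in receptor cells (49.6%), against 50.7% of all 13474 such genes. Those higher in control cells had a median log2 fold of 0.29 there and of -0.01 in receptor cells, and those lower had medians of -0.28 and -0.01. Of the 17 leading genes above, without TAF15, 12 had the same sign, among them SLC39A7, at 0.35 in control and 0.32 in receptor cells, and GALNT2, at -0.52 and -0.29. PC went the other way, with a log2 response of 0.39 in receptor cells. Across 15249 genes the responses of both lines correlated at a Pearson r of 0.0017 and a Spearman rho of 0.0057, given as a description across genes that are not independent.

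The genes that estradiol raised in receptor cells were then followed in control cells, where none passed the test. They were chosen by their response in receptor cells, so that response is given as a description. The control response did not enter the choice. The spread of the control arrays did, since the 12-array fit shares 1 variance per gene over both lines. In the 12-array fit 11 of 15249 genes were called in receptor cells (0.0721%), all higher, and 0 in control cells. With the replicate number as a block, 35 genes were called in receptor cells, all higher, and 0 in control cells, and the 35 included all 11. The 11 called without it are the ones followed here. Receptor arrays pair by replicate number, as described under processing. The p-values and intervals for receptor cells and for differences leave this pairing out unless a block is named. They also rest on the variance shared by both lines, although arrays of receptor cells spread more (median SD 0.195 and 0.194 against 0.106 and 0.113). For VASN the SE of the control response was 0.22 in that fit and 0.12 in the fit of 6 arrays. The number of genes with a response of at least 2-fold was 15 in receptor cells and 0 in control cells, and at least 1.5-fold 71 and 9. Such counts depend on the spread between arrays, which was wider in receptor cells. The median absolute log2 response was 0.086 in receptor cells and 0.080 in control cells. Of the 11 genes, 9 were tested in the 6 control arrays and 0 were called. OLFML3, a secreted glycoprotein, and RASGRF1, an activator of Ras, were detected on 0 of 6 control arrays, and on 5 and 6 of 6 receptor arrays. A rise that stays below the detection level could not be seen for these genes.

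VASN encodes vasorin, a surface protein that binds TGF-beta, and had the largest response in receptor cells. In control cells it stood at 5.55, 5.38 and 5.62 with vehicle and at 5.48, 5.37 and 5.78 with estradiol. In receptor cells its levels were 5.24, 6.09 and 6.31 with vehicle and 8.38, 8.20 and 8.29 with estradiol. The control groups overlapped and the receptor groups did not. The log2 fold was 0.02 in control cells (95% interval -0.25 to 0.30, limma adjusted p = 0.991) and 2.41 in receptor cells. Its promoter is shown because VASN had the widest gap between the lines among the genes detected in control cells. The single promoter matched to OLFML3, which had a larger fitted gap but was not detected in control cells, held 0 copies of the motif. The stretch of 300 bases (250 before the start and 50 after it) lies at chr16:4371598-4371897 of GRCh38.p14, plus strand, with capitals marking the estrogen response element core motif GGTCA, 171 bases before the start.
VASN: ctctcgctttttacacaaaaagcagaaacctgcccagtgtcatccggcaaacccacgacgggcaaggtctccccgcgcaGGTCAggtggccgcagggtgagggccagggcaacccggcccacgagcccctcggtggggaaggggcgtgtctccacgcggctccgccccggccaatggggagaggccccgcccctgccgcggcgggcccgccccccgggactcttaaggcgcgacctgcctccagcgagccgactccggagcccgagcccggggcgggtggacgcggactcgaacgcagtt
The core motif was searched as GGTCA on both strands and the full element as GGTCANNNTGACC, which contains the core motif. Of 13 RefSeq promoters matched to 6 of the 11 genes, 4 held the core motif and 0 the full element. Among all 35116 promoters of that length, 37.4% held the core motif and 0.0570% the full element.

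Other genes with responses in receptor cells were well measured in control cells. SMOX, the spermine oxidase of polyamine breakdown, stood at 8.32, 8.42 and 8.39 with vehicle and at 8.37, 8.33 and 8.16 with estradiol in control cells. Its receptor cell levels were 8.38, 8.40 and 8.61 against 9.97, 9.66 and 9.88. Its vehicle levels were thus close in both lines, and its control groups overlapped, with a log2 fold of -0.09 (-0.29 to 0.10). INPP4B, a phosphatase of phosphoinositide signalling, had control levels of 7.04, 7.21 and 7.14 against 7.22, 7.19 and 7.28 (0.10, interval -0.08 to 0.29), and a response of 1.37 in receptor cells. THBD, the anticoagulant thrombomodulin of the endothelial surface, had control levels of 8.19, 8.15 and 8.22 against 7.93, 8.21 and 8.03 (-0.13, interval -0.34 to 0.08). In receptor cells THBD ran from 7.03, 7.30 and 7.06 to 8.17, 8.19 and 8.11, so that its estradiol level there was near that of control cells.

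The remaining genes had intervals in control cells whose upper ends were below the estimate in receptor cells. They were chosen by their response in receptor cells, so this does not show a difference between the lines. The direct test of that difference, given below, called none of them in the main fit. B4GALT1, a galactosyltransferase, had -0.09 (-0.39 to 0.21) in control cells against 1.34 in receptor cells, and TNIP1, which restrains NF-kB, 0.02 (-0.18 to 0.21) against 0.87. CST4, a secreted cystatin, had -0.15 (-0.32 to 0.03) and ITPKC, an inositol phosphate kinase, -0.20 (-0.42 to 0.01). Both had all 3 estradiol arrays below all 3 vehicle arrays, the direction opposite to receptor cells. Among all genes 5.96% separated downward in this way, and neither CST4 nor ITPKC passed the test (limma adjusted p = 0.863 and 0.852). A second CST4 probe of like level, 7.41 against 7.43, had a log2 fold of -0.01. CCN5, a matricellular protein and known estrogen target of breast cells, had the highest estimate in control cells. It stood at 5.38, 5.75 and 5.21 with vehicle and at 6.05, 5.70 and 5.56 with estradiol, overlapping groups with a log2 fold of 0.32 (-0.07 to 0.70). The upper end corresponds to 1.62-fold, and without background correction the estimate was 0.11.

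**Figure D3:**
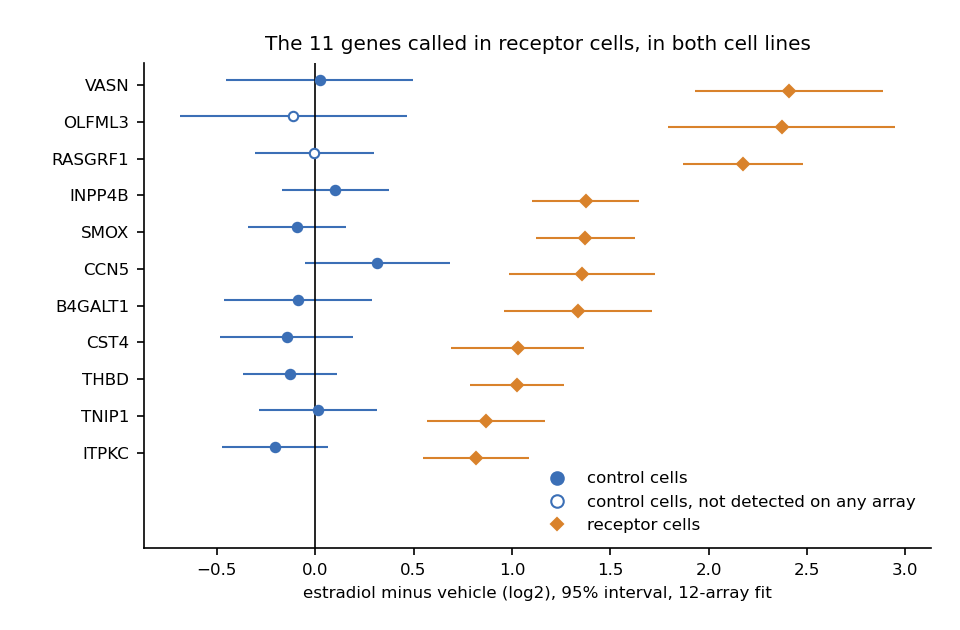
Estradiol minus vehicle (log2, x axis) with 95% intervals from the 12-array fit for the 11 genes called in receptor cells, in control cells (blue circles) and receptor cells (orange diamonds). Open circles mark genes detected on 0 control arrays, whose control response is not measured. Receptor cell estimates run from 0.82 to 2.41, and the control intervals of the other 9 genes include 0. The fit used no replicate block and 1 variance per gene for both lines, although arrays of receptor cells spread more.

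The difference between the lines was tested directly as the response in receptor cells minus that in control cells. It was called for 5 of 15249 genes (0.0328%), all with a larger fitted rise in receptor cells, and 437 genes (2.87%) had an unadjusted p under 0.05. Of these 5, RASGRF1 (limma adjusted p = 0.00125), was detected on 0 control arrays, so its control response is not measured and the size of its difference is not given. For the 4 genes detected in control cells the log2 differences were 1.47 for SMOX (1.11 to 1.82, 0.00593), 2.39 for VASN (1.71 to 3.06, 0.0214), 1.16 for THBD (0.82 to 1.5, 0.0227) and 1.27 for INPP4B (0.89 to 1.66, 0.0260). The other 6 of the 11 genes were not called, with OLFML3 at an adjusted p of 0.0516 and CCN5 at 0.769, so for those a difference between lines was not shown. With the replicate number as a block, 9 genes were called. INPP4B was no longer among them (adjusted p = 0.0807), while OLFML3 (0.00678), DHRS3, a retinal reductase (1.71), the cyclooxygenase PTGS2 (1.43), PC (0.99) and the keratin KRT15 (0.97) were. When each of the 12 arrays was left out in turn, RASGRF1 and SMOX stayed called in all fits. VASN lost its call in 7 fits (adjusted p 0.0679 to 0.119), THBD in 9 (0.0511 to 0.120) and INPP4B in 8 (0.0772 to 0.143). VASN lost it without control estradiol replicate 1 or 2, any control vehicle array, or receptor estradiol replicate 1 or 2. INPP4B lost it without any of the 6 control arrays or receptor estradiol replicate 1 or 2, and THBD without any array other than control estradiol replicate 2, receptor estradiol replicate 3 and receptor vehicle replicate 2. Leaving out any one control array gave 2 or 3 called genes.

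Classical estrogen targets, taken from a list of genes best known from breast cancer cells, showed no common direction in control cells. Of 32 listed, 18 were tested and 0 were called, 9 with higher and 9 with lower estimates, with a median log2 fold of -0.01 against -0.00 for all genes. The estimates ran from -0.26 to 0.32, and 17 of 18 had intervals within 1.5-fold. The most hormone-dependent members, PGR, GREB1, TFF1 and PDZK1, were below the detection filter. CTSD, the lysosomal protease cathepsin D, had levels of 8.93, 9.01 and 9.03 against 8.83, 8.91 and 9.01 (-0.07, interval -0.26 to 0.11). CCND1, the cyclin of G1 phase, had 12.74, 12.92 and 12.85 against 12.75, 12.75 and 12.92 (-0.03, interval -0.23 to 0.17). The groups overlapped for both. XBP1, the transcription factor of the unfolded protein response, had 0.01 (-0.19 to 0.21). For MYC the more abundant probe had 0.04 (-0.14 to 0.23). A second probe, at a mean level of 7.70 against 11.12, had 0.31 (limma, unadjusted p = 0.0154), so the probes of MYC differed. With every probe kept, the smallest adjusted p of any probe was 0.664. TPD52L1, a tumour protein D52 relative, had the lowest estimate, -0.26 (-0.53 to 0.00), and NRIP1, a corepressor of nuclear receptors, had -0.20 (-0.48 to 0.08).

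The machinery around the receptors was present. Of 22 receptor cofactors, 21 were tested, 0 called, 1 with an unadjusted p under 0.05 higher and 2 lower, against 2.62% and 3.26% of all genes, with a median of -0.04. STRN, striatin, which tethers estrogen receptor alpha at the membrane, stood at 6.39, 6.57 and 6.48 with vehicle and at 6.73, 6.78 and 6.94 with estradiol (0.33 ± 0.09, SE, limma adjusted p = 0.775). All estradiol arrays were higher, but its second probe, near background, had 0.08. The acetyltransferase EP300 had levels of 6.12, 6.24 and 6.15 against 5.84, 5.98 and 5.98 (-0.24), and the corepressor NCOR1 6.80, 6.70 and 6.61 against 6.55, 6.41 and 6.55 (-0.20). Both had non-overlapping groups, as had 5.96% of all genes in that direction, with limma adjusted p-values of 0.775 and 0.838. Of 10 tested nuclear receptors, 8 had lower estimates (80%, against 51.2% of all genes), with a median of -0.06 and a range of -0.19 to 0.13.

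Genes that make, conjugate or break down estrogens were measured too. Of 21 listed, 13 were tested and 0 called, with a median of -0.00 and estimates between -0.11 and 0.14. HSD17B2, which oxidises estradiol to estrone, had levels of 5.74, 5.66 and 5.82 against 5.56, 6.27 and 5.76 (0.12, interval -0.26 to 0.51), with estradiol replicate 2 the highest array. Aromatase (CYP19A1) and the estrogen sulfotransferase SULT1E1 were below the filter. Of 9 tested targets of the glucocorticoid and aryl hydrocarbon receptors, 0 were called and the median was -0.00. CYP1A1, the main aryl hydrocarbon receptor target, had levels of 7.36, 7.54 and 7.46 against 7.64, 7.60 and 7.12 (-0.00), and FKBP5, a glucocorticoid target, 8.20, 8.35 and 8.38 against 8.44, 8.40 and 8.46 (0.12, interval -0.06 to 0.31).

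Immediate early and kinase feedback genes, which answer to rapid signalling, were measured at 16 h, long after a rapid response would have peaked. Of 23 immediate early genes tested, 0 were called, 16 had lower estimates (69.6%, against 51.2% of all genes) and the median was -0.04. FOS stood at 5.48, 5.09 and 5.39 with vehicle and at 4.89, 5.00 and 5.04 with estradiol (-0.34 ± 0.11, SE, limma adjusted p = 0.775). CCN1, a matricellular growth regulator, had levels of 11.75, 11.80 and 11.85 against 11.63, 11.50 and 11.50 (-0.26 ± 0.08, 0.775). Both had all estradiol arrays below all vehicle arrays, as did 5.96% of all genes. EGR1 had -0.04 (-0.26 to 0.19) and JUNB -0.16 (-0.38 to 0.06), with overlapping groups. Of 13 MAP kinase feedback inhibitors, 9 had lower estimates (69.2%), with a median of -0.04. The sprouty protein SPRY4 had 6.53, 6.63 and 6.50 against 6.24, 6.49 and 6.41 (-0.18), and the phosphatase DUSP6 0.07 (-0.12 to 0.25). The medians over these 13 genes of each array's deviation from the gene's mean were 0.03, 0.01 and 0.03 with vehicle and -0.04, -0.01 and -0.01 with estradiol. They did not overlap, though all were within 0.04 of 0. Other lists, given below, separated in the opposite direction.

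NOS3, which makes nitric oxide from arginine, did not pass the test. It stood at 10.89, 11.12 and 10.63 with vehicle and at 10.70, 10.72 and 10.73 with estradiol, a log2 fold of -0.16 (95% interval -0.44 to 0.11, limma adjusted p = 0.902). Without single arrays it ranged from -0.29 to -0.04. The estradiol arrays lay inside the vehicle range. Of 18 nitric oxide genes tested, 0 were called, 14 had lower estimates (77.8%, against 51.2% of all genes) and the median was -0.05. The chaperone HSP90AB1, which holds NOS3 active, had levels of 11.15, 11.21 and 11.14 against 10.96, 11.03 and 11.02 (-0.16, interval -0.33 to 0.01). Caveolin CAV1, which holds NOS3 inactive, had -0.02, GCH1, which makes its cofactor, -0.07, and DDAH1, which clears an inhibitor, -0.01. The array medians over these genes did not overlap, at 0.04, 0.01 and 0.02 with vehicle and -0.03, -0.06 and -0.01 with estradiol. Such separation was not particular to this list and went in both directions. Array medians were also wholly lower with estradiol for the MAP kinase feedback inhibitors and the genes raised in receptor cells. They were wholly higher for the epithelial markers and for the genes of vascular tone, clotting and fibrinolysis. In the remaining lists they overlapped. Among single genes, 11% had groups that did not overlap.

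Of 28 endothelial identity genes tested, 0 were called, 18 had lower estimates (64.3%, against 51.2% of all genes) and the median was -0.07. VWF, the von Willebrand factor stored for release on injury, stood at 10.62, 10.39 and 10.34 with vehicle and at 9.71, 10.28 and 10.03 with estradiol. All estradiol arrays were lower, with estradiol replicate 1 the lowest, and the log2 fold was -0.44 (-0.78 to -0.11, limma adjusted p = 0.775). Without single arrays it ranged from -0.58 to -0.30. CDH5, the cadherin of endothelial junctions, had levels of 12.61, 12.68 and 12.51 against 12.36, 12.49 and 12.41 (-0.18, interval -0.37 to 0.01), and endoglin (ENG) 11.79, 11.98 and 11.71 against 11.71, 11.62 and 11.60 (-0.19). Their groups did not overlap either, by a narrow margin. Of the 28 genes, 3 had groups wholly lower and 1 wholly higher, against 5.96% and 5.07% of all genes. PECAM1, another junction protein, had -0.07 (-0.34 to 0.21) and the VEGF receptor KDR -0.06 (-0.45 to 0.33), with overlapping groups. ERG, a transcription factor of endothelial identity, had an estimate on the other side, 0.22 (-0.07 to 0.51). The array medians over the 28 genes overlapped, at 0.03, 0.04 and 0.00 with vehicle and -0.08, 0.08 and -0.06 with estradiol.

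**Figure D4:**
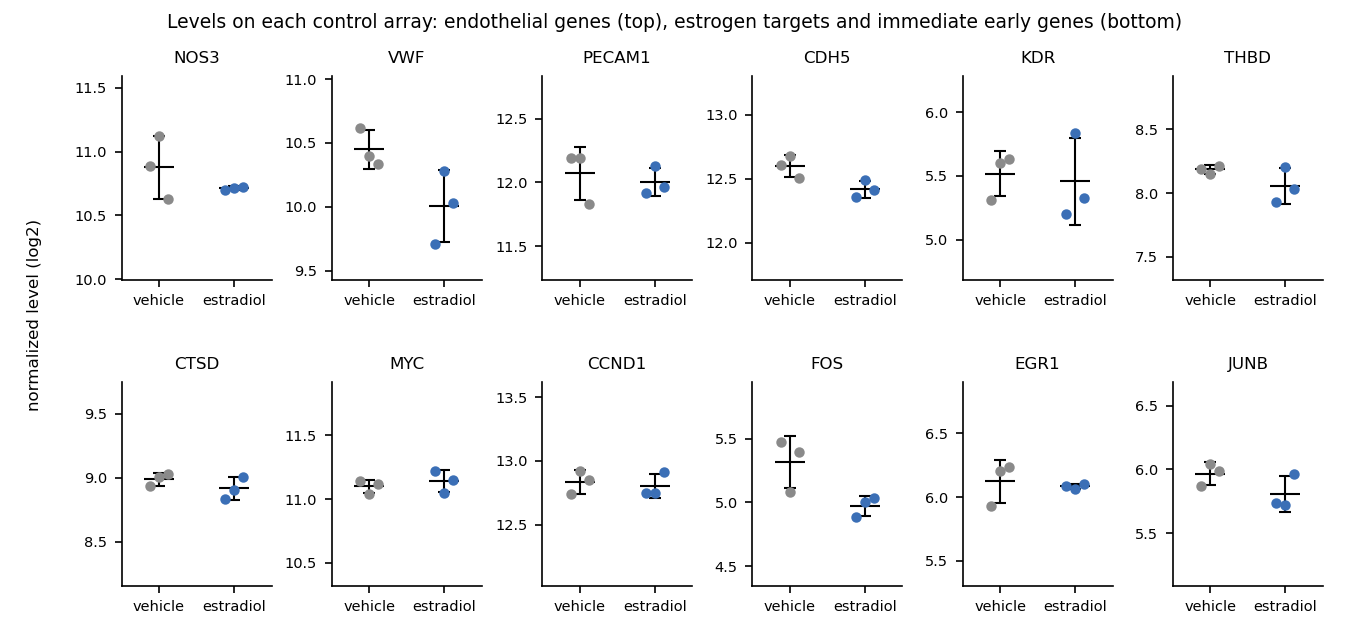
Normalized levels (log2, y axis) on each of the 6 control arrays, vehicle in grey and estradiol in blue, for 6 endothelial genes (top) and for estrogen targets and immediate early genes (bottom). Bars give the mean and SD of 3 arrays, and all panels span the same number of log2 units. Of the 6 endothelial genes, VWF and CDH5 have estradiol arrays wholly below the vehicle arrays, and NOS3 estradiol arrays lie inside the vehicle range. Among all genes tested, 5.96% have estradiol arrays wholly below the vehicle arrays.

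Of 19 genes of vascular tone, clotting and fibrinolysis tested, 0 were called and the median was 0.01. The array medians over these genes did not overlap, at -0.02, -0.02 and -0.04 with vehicle and 0.02, 0.02 and 0.02 with estradiol. The vasoconstrictor endothelin (EDN1) had 10.95, 11.03 and 10.95 against 11.02, 10.98 and 11.04 (0.04, interval -0.13 to 0.21), the tissue plasminogen activator PLAT 0.07 (-0.16 to 0.29) and the protein C receptor PROCR -0.00 (-0.19 to 0.18). Groups overlapped for all 3. PTGS1, the constitutive cyclooxygenase, had levels of 6.39, 6.35 and 6.47 against 6.80, 6.50 and 6.55 (0.21, interval -0.02 to 0.44). TFPI2, a protease inhibitor, had the widest estimate at 0.38 (-0.02 to 0.79), carried by estradiol replicate 2 at 5.57 against 4.63 to 5.00 on the others.

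Adhesion, chemokine and NF-kB genes gave estimates on both sides of 0. Of 28 listed, 19 were tested and 0 called, with a median of -0.06. Groups did not overlap for 2 higher genes and 1 lower gene, against 5.07% and 5.96% of all genes. An unadjusted p under 0.05 was reached by 1 higher and 2 lower, against 2.62% and 3.26% of all genes. The higher one was P-selectin (SELP), which captures leukocytes. It had levels of 7.31, 7.32 and 7.31 with vehicle and 7.56, 7.52 and 7.55 with estradiol, a log2 fold of 0.23 (0.07 to 0.40, limma adjusted p = 0.775), with tight and separate groups. The lower ones were TNFAIP2, an NF-kB target, at 5.44, 5.61 and 5.49 against 5.21, 5.26 and 5.25 (-0.27), and TRAF1, a signalling adaptor, at -0.27 with 1 of 3 estradiol arrays detected. The chemokine CXCL8 had 8.17, 8.11 and 8.08 against 8.25, 8.41 and 8.23 (0.18, interval -0.01 to 0.37). ICAM1, SELE and CX3CL1 were below the filter, and VCAM1 was detected on 1 of 3 vehicle and 2 of 3 estradiol arrays.

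Of all 30 lists, interferon-stimulated genes had the lowest median. Of 33 genes tested, 0 were called, 0 had an unadjusted p under 0.05 and 28 had lower estimates (84.8%, against 51.2% of all genes), with a median of -0.11. OAS2, an antiviral enzyme, had levels of 11.35, 11.36 and 11.10 against 11.05, 10.85 and 11.22 (-0.23). Its vehicle replicate 3 lay within the estradiol range. The array medians were 0.07, 0.05 and -0.02 with vehicle and -0.05, -0.19 and 0.07 with estradiol, so estradiol replicate 3 stood with the highest vehicle arrays. Without estradiol replicate 2 the median log2 fold was -0.04, and without estradiol replicate 3 it was -0.18. Members of such a list move together from array to array, so the count of lower estimates is not a count of independent results. The same limit may hold for the counts of the other lists.

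Matrix, integrin and protease genes had the next lowest median. Of 28 tested, 0 were called, 22 had lower estimates (78.6%, against 51.2% of all genes) and the median was -0.10. HSPG2, given above, and THBS1, the antiangiogenic thrombospondin, had unadjusted p-values under 0.05, THBS1 with 12.64, 12.73 and 12.47 against 12.35, 12.44 and 12.30 (-0.25, limma adjusted p = 0.781). Both had non-overlapping groups. Of all genes, 5.96% separated in that direction and 3.26% had an unadjusted p under 0.05 in it. The laminin chain LAMA5 had 12.30, 12.17 and 11.74 against 11.91, 11.71 and 11.72 (-0.29), and LAMC1 12.04, 11.96 and 11.67 against 11.61, 11.53 and 11.80 (-0.25). For both laminins vehicle replicate 3 stood with the estradiol arrays, as in the array medians of the list, which were 0.13, 0.11 and -0.10 with vehicle and -0.04, -0.03 and -0.07 with estradiol. The TGF-beta and BMP targets had a median of -0.01 over 16 genes. BAMBI, a decoy receptor of that pathway, was the member with the smallest p, at 5.68, 5.74 and 5.72 against 6.09, 5.91 and 6.03 (0.29, limma adjusted p = 0.775). Of 20 angiogenic and Notch genes, 15 had lower estimates (75%, against 51.2% of all genes), with a median of -0.08 and 0 called.

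Proliferation genes had estimates in both directions. Of 32 mitosis genes tested, 20 had higher and 12 lower estimates, with a median of 0.02, and of 37 replication genes 23 and 14, with a median of 0.02, and 0 were called in either. MKI67, the gene of the proliferation marker Ki-67, had 5.08, 5.23 and 5.23 against 4.65, 4.93 and 4.56 (-0.47 ± 0.11, SE, limma adjusted p = 0.775), and was detected on 3 of 3 vehicle and 1 of 3 estradiol arrays. CCNB2, a mitotic cyclin measured far above background, had an estimate of the opposite sign, with 9.65, 9.60 and 9.67 against 9.87, 9.77 and 9.80 (0.17, interval -0.00 to 0.34). In RNA from whole cultures fewer cells in a state and less RNA per cell cannot be told apart. On the authors' values the log2 fold of MKI67 was -0.15.

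For the metabolic and stress lists, median log2 folds were 0.02 for 23 cholesterol genes, 0.02 for 31 oxidative phosphorylation genes, 0.01 for 29 hypoxia and glycolysis genes, 0.04 for 22 ATF4 targets, 0.02 for 21 NRF2 targets, 0.01 for 25 p53 targets and -0.02 for 20 genes of the unfolded protein response. None of their members was called. HMGCS1, an early cholesterol enzyme, had 9.16, 8.87 and 9.12 against 9.21, 8.98 and 9.18 (0.07), and heme oxygenase HMOX1 -0.15 (-0.48 to 0.18). In polyamine metabolism, the pathway of SMOX, 12 genes had a median of 0.00, and AGMAT, annotated as an agmatinase, had 5.20, 5.09 and 5.10 against 4.71, 4.65 and 4.96 (-0.35). Other members with the smallest p of their list were FTH1, the ferritin heavy chain (0.28), PSPH of serine synthesis (0.25), BNIP3, a mitophagy receptor (0.18), and SEL1L of protein degradation in the endoplasmic reticulum (-0.31). All 4 had adjusted p-values from 0.775 to 0.838 in limma.

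Over the 30 lists together, 548 of 678 distinct genes were tested, 0 were called and 18 had an unadjusted p under 0.05, against 5.88% of all genes. List medians ran from -0.11 to 0.07, and the median of all genes was -0.00. The epithelial markers had the highest median, 0.07 over 6 genes, with KRT18 at 7.51, 7.54 and 7.86 against 7.58, 7.72 and 7.82 (0.07). The 18 reference genes had a median of 0.02, with ACTB at -0.05 and GAPDH at 0.10.

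**Figure D5:**
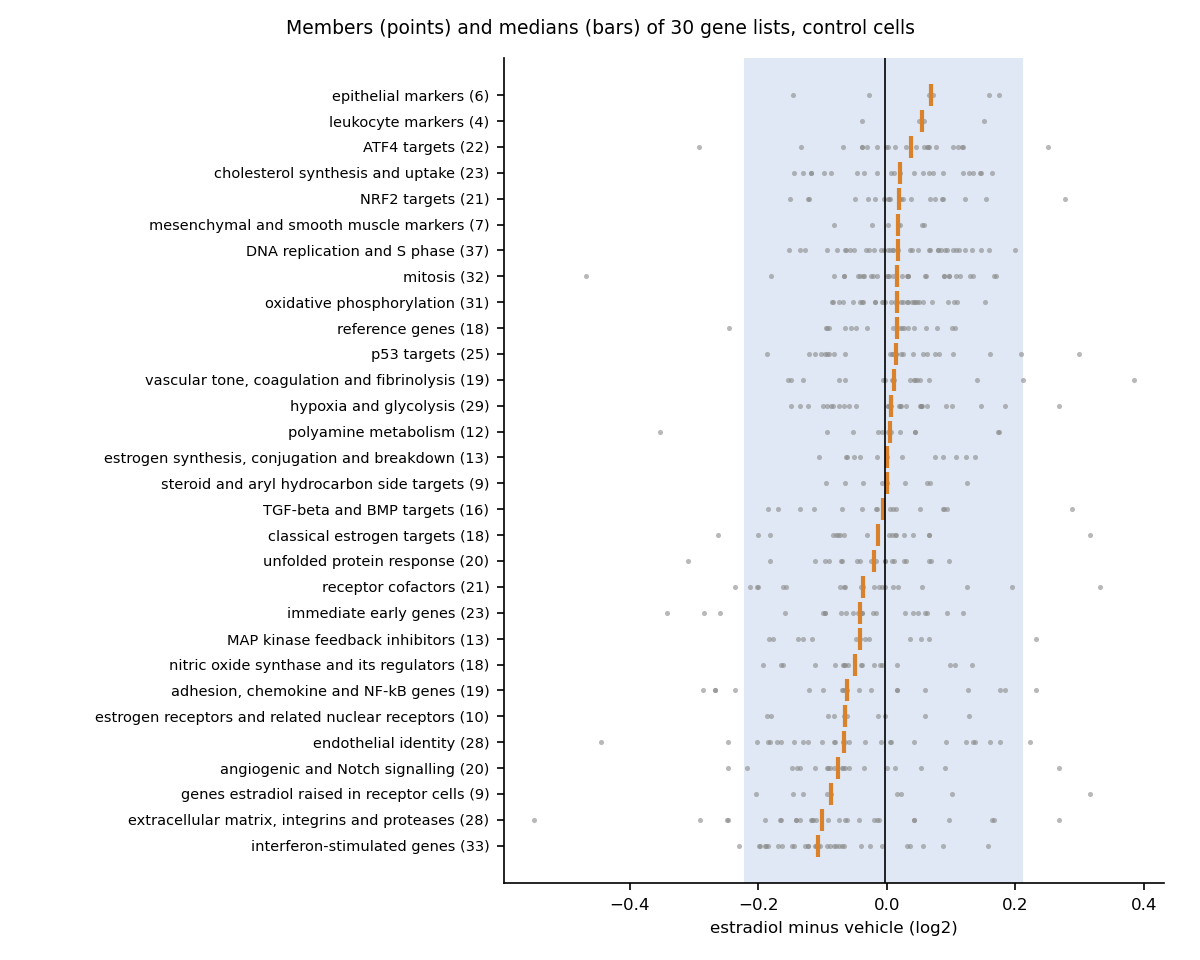
Estradiol minus vehicle (log2, x axis) in control cells for the tested members (grey points) and the median (orange bar) of each of 30 gene lists, with the number tested in brackets. The black line is the median of all genes and the shaded band holds the middle 90% of them, from -0.22 to 0.21. List medians run from -0.11 to 0.07, inside the band.

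A last view counts probes that were detected on all arrays of a group and on 0 of the other, over all 47321 probes and not only those tested. In control cells 57 probes (0.12%) were detected on 3 of 3 estradiol and 0 of 3 vehicle arrays, and 66 (0.139%) the other way. Receptor cells had 46 (0.0972%) and 53 (0.112%). Such probes lie near the detection limit in their brighter group, as for ATP8A2, FRS2, GHRHR and ST6GALNAC1 above, and their number was not larger in receptor cells.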

How the data were processed

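RNA from 12 cultures was hybridised to Illumina BeadChips, 3 arrays per group. The authors deposited, per the file headers, a non-normalized intensity and a detection p-value per probe and array, and a normalized intensity for which the submitters' processing notes name lumi without a version. The bead summary steps before that are not given in the sources used here. Of 47322 probes, 1 without values on all arrays was left out. Intensities of all 12 arrays were processed with neqc (limma 3.58.1, R 4.3.3), which corrects background from the deposited detection p-values, adds an offset of 16, quantile normalises and takes log2. Probes had a detection p under 0.05 on at least 3 of the 6 control arrays (18712 probes), and each gene was represented by its brightest probe (13584 genes, 3217 with several probes). Symbols were updated from RefSeq for 4675 probes.

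The 6 arrays were fitted with 1 mean per group, and moderated two-sided tests (8.26 degrees of freedom) were adjusted by Benjamini-Hochberg. The difference between lines came from a 12-array fit (15249 genes, at least 3 of 12 arrays). Folds against a group detected on 0 arrays are bounds against the level where detection starts. The code was tested on simulated data. The members and lists were chosen with earlier results of these data known. The genes named are, leaving out placeholder symbols (LOC, C1orf style, KIAA, FLJ, MGC, HS.), the 6 higher and 6 lower of smallest p and the 4 of largest fold in each direction among non-overlapping genes detected on all 3 arrays of the higher group, then the 11 genes called in receptor cells, genes fixed by name and the smallest-p member of each list; other list members were named after their values were seen. Arrays give no counts, so their number limits precision. Numbers pair arrays when all 3 correlations of deviations from group means exceed 0.1; those were 0.76, 0.39 and 0.67 in receptor cells and 0.09, 0.04 and 0.12 in control cells, so only receptor arrays count as paired. Results for some genes are not reported here. Alternatives were the authors' values, background correction, the detection filter, every probe, normalisation on 6 arrays, an intensity trend, array weights, the replicate block and leaving out each array. Figures used matplotlib, and promoter sequences come from RefSeq (GRCh38.p14).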

Additional observations from a re-analysis of the deposited data

Results flagged for a closer look

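The response to estradiol differed between the lines, by the test of the difference itself (receptor minus control, limma on 12 arrays), for 5 genes, of which 4 were detected in control cells. Their log2 difference was 1.47 for SMOX, 2.39 for VASN, 1.16 for THBD and 1.27 for INPP4B. With each of the 12 arrays left out in turn, SMOX kept its call in all fits. VASN lost its call in 7, THBD in 9 and INPP4B in 8. INPP4B was also not called with the replicate block (limma adjusted p = 0.0807). The fitted 2.18 of RASGRF1 sets its receptor cell response against a probe at background on all 6 control arrays, so its control response is not measured and the value is not a measured difference. Vehicle levels of THBD were 8.19 ± 0.03 (SD, n = 3) in control and 7.13 ± 0.15 (SD, n = 3) in receptor cells, and those of SMOX 8.38 ± 0.05 and 8.46 ± 0.12.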

How the results depend on the processing

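No alternative called a gene for estradiol in control cells (0 in all 16), and the smallest adjusted p lay between 0.0508 and 1.00. The share of genes with an unadjusted p under 0.05 was lowest with all 12 arrays in the fit, at 2.30%, and highest without control vehicle replicate 3, at 8.89%. With the replicate block it was 921 genes, a fit in which the control arrays share only a number and 5 of 6 correlated best with their own; it changed no call in control cells. With every probe kept, 1 probe reached 2-fold (LOC148430, 2.20-fold, limma adjusted p = 0.664). Named control estimates reversed only when single arrays were left out, and the reversed ones stayed under 0.1 in size. The ranges were -0.181 to 0.0235 for B4GALT1, -0.087 to 0.00911 for CCND1, -0.137 to 0.0175 for EGR1, -0.0200 to 0.144 for HMGCS1, -0.251 to 0.0679 for KDR, -0.0505 to 0.0635 for TNIP1, -0.0948 to 0.108 for VASN and -0.0405 to 0.0564 for XBP1. The cause was not tested. List medians moved by more than the SD between arrays in 29 recomputations and by less in 451. In receptor cells 11 genes called became 35 with the replicate block. For the difference between lines, 5 genes called became 9 with the replicate block, 6 on the authors' values, 4 without a detection filter and 4 when detection on all 12 arrays was required, and 2 to 7 when single arrays were left out. OLFML3 was called with the block, on the authors' values and without receptor vehicle replicate 1 or 3, and B4GALT1 and CST4 without receptor estradiol replicate 3. VASN lost its call without a filter (adjusted p = 0.0669), where more genes were tested. Detection limits the low genes: folds near background were smaller without background correction, as for TXNL1 (0.21 against 0.67).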
